A study of Mus musculus with 31 samples.

Results

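Complement and coagulation are the 2 protein cascades of blood plasma, described here through 40 of their genes in 2 tissues of the same kind of mouse. The genes were taken from a list of symbols, with no use of measured values. All 40 were in the liver table of 13677 genes, and 31 were in the table of 15987 genes from eWAT, the epididymal white fat of the male abdomen. F9, F11, F13b, Proc, Cpb2, C8b, C4bp, Mbl1 and Mbl2 were the 9 genes absent from the eWAT table, in which every gene kept had reached at least 0.5 CPM (counts scaled to a fixed library total) in at least 4 libraries. Libraries came from wild-type male C57BL/6 mice of the F1 generation aged 24 weeks. All animals, in every arm, had chow until 6 weeks of age and then the diet labelled LFD for 18 weeks. The HFLF arm had 6 liver and 6 eWAT libraries, the HF arm 5 and 6, and the LF arm 4 and 4. The arms carry the diet tags HFLFD, HFD and LFD, and since the animals' own feeding was the same, the tags are understood here, from the title of the series alone, as the diet arm of the paternal lineage. Whether the animals of an arm had separate fathers or litters is not given in the sources used here, so p-values measure the spread between these animals.

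In the coagulation cascade, tissue factor with factor VII, or the contact factors, lead to activation of factor X, then of prothrombin (F2), and thrombin turns fibrinogen into fibrin, while inhibitors restrain the proteases and plasmin dissolves the clot. In the complement cascade, the classical, lectin and alternative routes meet at cleavage of C3, and the late components C6 to C9 join in a pore in the target membrane. Hepatocytes make most of these plasma proteins, and several complement proteins are also made by macrophages, fibroblasts and adipocytes. C5ar1, the receptor for the C5a fragment, is a membrane protein of myeloid cells and not a plasma component.

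The liver libraries held 9225373 to 17268415 counts and the eWAT libraries 9278083 to 27230205, so that 3 counts, the floor used here for detection, equalled 0.174 to 0.325 CPM in liver and 0.110 to 0.323 CPM in eWAT. Floors cover counting error only. Both tissues held their defining markers: 24 of 24 hepatocyte genes were in the liver table, with a summed 132654 to 166823 CPM per library, and 10 of 10 adipocyte genes were in the eWAT table, with 41003 to 55672 CPM. Liver had 0 of 5 testis and 0 of 10 epididymis genes, and eWAT had 5 testis genes, which summed to at most 1.21 CPM in HFLF, 116 in HF and 23.2 in LF, and 0 epididymis genes. B cell genes in eWAT summed to at most 18.7 CPM in HFLF, 184 in HF and 483 in LF. Members summed to 36168 to 63488 CPM in a liver library and 1820 to 4167 CPM in an eWAT library.

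In liver the members were among the most abundant transcripts, with Fga and Fgg highest. Levels between genes are given as CPM per kilobase of summed exon. Fga and Fgg, the alpha and gamma chains of fibrinogen, stood at 2039 and 2006 CPM per kilobase, and Fgb, the beta chain, at 1458. Vtn, the adhesive protein vitronectin that also blocks the terminal pore, had 1579.8, and C3 had 1456. With the longest transcript as the length, Fgg came before Fga. Of the 40 members, 35 lay above the 90th percentile of all liver genes on this scale, and the median member lay at percentile 98.3. The 5 others were Cfb, Masp1, C2, Pros1 and C5ar1. At 0.418 CPM per kilobase and percentile 12.3, C5ar1 was the lowest.

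By role, the proteases and cofactors of the tissue factor and common routes spanned 64.7 for F5, the cofactor factor V, to 516 CPM per kilobase for F2, prothrombin. Between them lay F7 (82.7) and F10 (189.7), the protease that cleaves prothrombin. In the contact and intrinsic route, Kng1, kininogen, had 598 and F12, the contact factor, 365, while F9, F11 and Klkb1, prekallikrein, had 69.9, 48.8 and 39.8 CPM per kilobase. Among inhibitors of clotting, Proc (protein C) stood at 274, Serpinc1 (antithrombin) at 233, Serpind1 (heparin cofactor II) at 202 and Pros1 (protein S, the cofactor of protein C) at 17.5. Plg, plasminogen, had 685, its inhibitor Serpinf2 411 and Cpb2, which slows clot breakdown, 196 CPM per kilobase. In complement, C4b had 350.0 and Serping1 (C1 inhibitor) 345, against 142 and 88.9 for C1s1 and C1ra, the proteases of C1, and 18.5 for C2. The lectins Mbl2 and Mbl1, which bind sugars on microbes, had 302 and 103, and the proteases that travel with them, Masp2 and Masp1, 55.8 and 20.4 CPM per kilobase. Of the pore components, C8g, C8a, C9, C8b and C6 ran in this order from 281 to 94. Some members have near copies whose reads the counting could split: C4a averaged 156 CPM in liver beside 1993 for C4b, and Kng2 286 beside 1943 for Kng1. C2 and Cfb, factor B of the alternative route, lie 85 bases apart on the same strand of chromosome 17, and reads from between them could go to either.

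No member passed the test between arms in liver. At an adjusted p under 0.05 in edgeR's quasi-likelihood test, 0 of 40 members passed in HF against LF, HFLF against LF or HFLF against HF, where 0 of all 13677 genes passed (0%). DESeq2 called 0 members and 1, 11 and 0 of all genes in the same order, and limma voom called 0 of either. At an unadjusted p under 0.05 edgeR had 0 of 40 members in each comparison, beside 3.6%, 5.47% and 1.86% of all genes in the same order. The members' log2 fold changes ran from -0.40 to 0.28, from -0.45 to 0.16 and from -0.36 to 0.09, with standard errors between 0.0753 and 0.332, so differences of that size were not excluded for single genes. Their medians were 0.03, -0.03 and -0.06, beside -0.00211, 0.000325 and 0.00237 over all genes. HF against LF and HFLF against LF share the LF libraries, and HFLF against HF shares libraries with both.

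The smallest p in liver belonged to C9, the protein that lines the complement pore. C9 had 321 to 813 CPM in HFLF (median 528), 807, 663, 509, 520.4 and 467 CPM in HF and 795, 756, 810.1 and 770.3 CPM in LF. The LF libraries were close together, and HF and HFLF libraries ran from that level downwards, so that the groups overlapped at their upper ends. Its log2 fold change was -0.45 ± 0.21 (SE; unadjusted p = 0.0514, adjusted p = 0.868) in HFLF against LF and -0.40 ± 0.22 (SE; unadjusted p = 0.0903, adjusted p = 1.000) in HF against LF. C6, which binds C5b at the start of the pore, had 185 to 434 CPM (median 292, n = 6) in HFLF, 403, 365, 312, 335 and 296 CPM in HF and 368, 351, 426 and 350.2 CPM in LF. Its HFLF libraries reached both above and below those of LF, and the log2 fold change of HFLF against LF was -0.31 ± 0.20 (SE; unadjusted p = 0.13, adjusted p = 0.868). F13b, the carrier chain of the fibrin-linking enzyme factor XIII, lay the other way. It had 172 to 216 CPM (median 186, n = 6) in HFLF, 211, 165, 216, 171 and 160.5 CPM in HF and 164, 167, 172 and 174 CPM in LF, with log2 fold changes of 0.16 ± 0.10 (SE; unadjusted p = 0.12, adjusted p = 0.868) in HFLF against LF and 0.13 ± 0.10 (SE; unadjusted p = 0.236, adjusted p = 1.000) in HF against LF. For Klkb1 the values were 148 to 255 CPM (median 212, n = 6) in HFLF, 219.7, 143, 225, 202 and 200.1 CPM in HF and 214, 215, 226 and 234 CPM in LF. HF 2 was the lowest, and the log2 fold change of HF against LF was -0.17 ± 0.14 (SE; unadjusted p = 0.254, adjusted p = 1.000).

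Between the HFLF and HF arms, C5ar1, Cfb and F10 had the smallest p. C5ar1 had 0.789 to 1.41 CPM (median 0.918, n = 6) in HFLF, 1.28, 1.54, 1.02, 1.39 and 0.95 CPM in HF and 0.73, 1.16, 0.874 and 1.33 CPM in LF, all near 1 CPM and overlapping. Its log2 fold change in HFLF against HF was -0.36 ± 0.24 (SE; unadjusted p = 0.16, adjusted p = 1.000). Cfb had 52.3 to 83.9 CPM (median 71.4, n = 6) in HFLF, 93.9, 82.6, 74.4, 80.8 and 63.7 CPM in HF and 62.2, 67.7, 61.1 and 97.5 CPM in LF. F10 had 439.7 to 555 CPM (median 510.5, n = 6) in HFLF, 558, 568.3, 556, 533 and 499.7 CPM in HF and 519, 462, 578 and 453 CPM in LF. The arms overlapped in both, at log2 fold changes of -0.16 ± 0.14 (SE; unadjusted p = 0.245, adjusted p = 1.000) and -0.10 ± 0.09 (SE; unadjusted p = 0.275, adjusted p = 1.000) in HFLF against HF. Prothrombin was among the steadiest members, at 2365 ± 149 CPM in HFLF, 2413 ± 155 CPM in HF and 2325 ± 63.2 CPM in LF (mean ± SD; n = 6, 5 and 4).

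**Figure D1:**
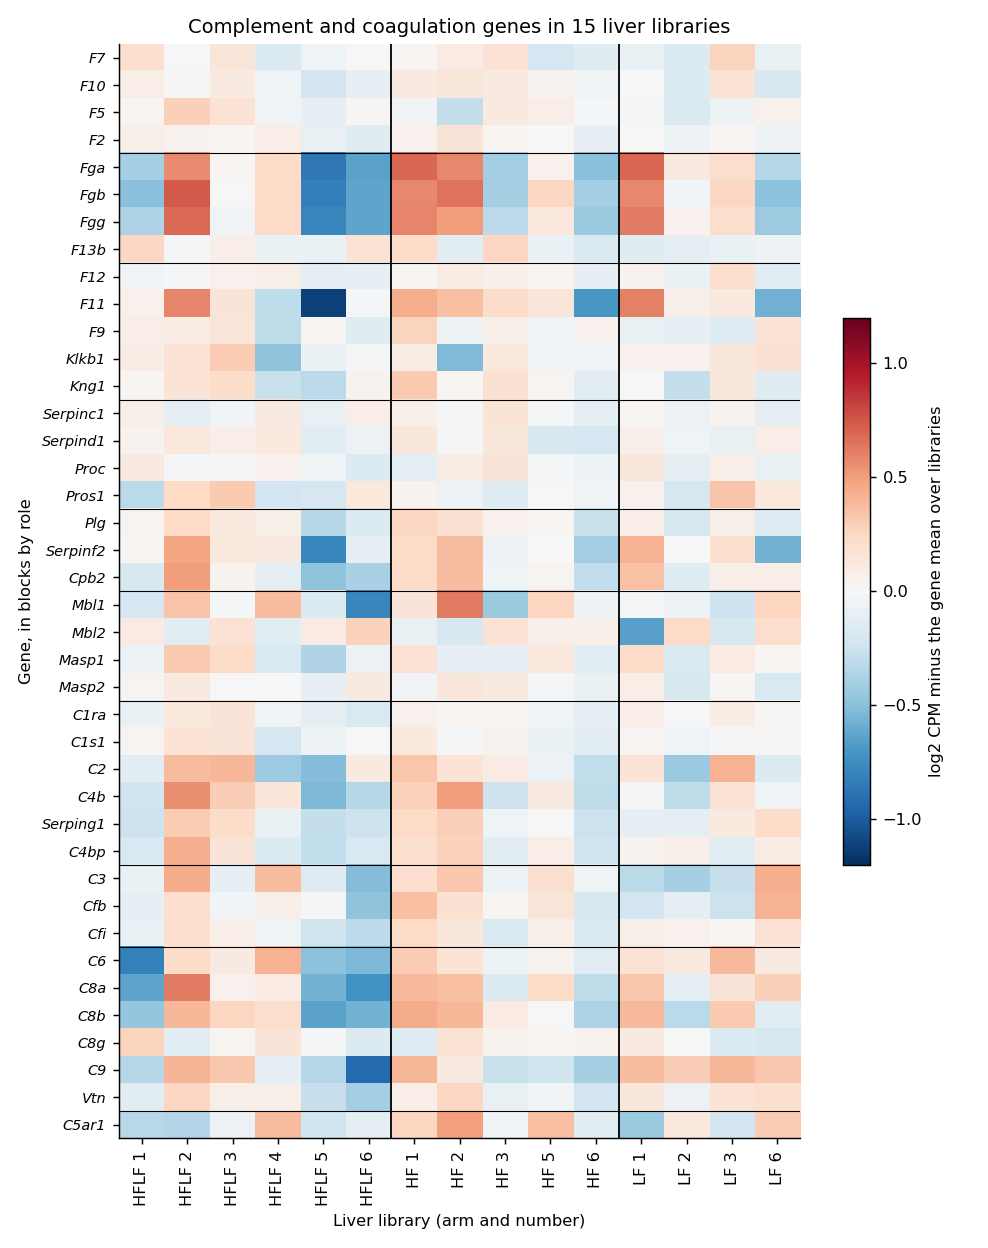
Level of each of the 40 genes (rows, in blocks by role) in the 15 liver libraries (columns, HFLF, HF and LF from left to right), as log2 CPM minus the gene's mean over the libraries. HFLF 5 was the lowest library for 15 genes and HFLF 2 the highest for 14, while the arms as wholes do not separate. No share over all liver genes is set beside these counts.

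In liver many members had their highest or lowest value in the same few libraries. HFLF 2 was the highest of the 15 libraries for 14 of 40 members, and HFLF 5 and HFLF 6 were the lowest for 15 and 10. No share over all liver genes is set beside these counts, so they cannot be read as a trait of the members. The within-arm SD on the log2 scale had a median of 0.218 over members, beside 0.244 over all liver genes, and ran from 0.0827 for F2 to 0.535 for Fgb. The fibrinogen chains were the most variable together with F11, the intrinsic route protease, whose highest library stood 3.3-fold above its lowest. Fga had 4411, 8616, 5916, 6781, 3197 and 3711 CPM in HFLF 1 to 6, 9364, 8654, 4382, 6001 and 4098 CPM in HF, and 9365, 6269, 6697 and 4581 CPM in LF. Fgb had 3695, 8733, 5269, 6186, 2964 and 3384 CPM in HFLF, 7829, 8254, 3985, 6208 and 3954 CPM in HF and 7791, 5125, 6241 and 3722 CPM in LF. Fgg had 3078, 6381, 3863, 4699, 2321 and 2569.7 CPM in HFLF, 6007, 5655, 3219, 4359 and 2939.9 CPM in HF and 6164, 4136, 4629 and 2948 CPM in LF. Each arm held libraries at both ends of the range, and the same libraries were high or low for all 3 chains. The ratio of Fga to Fgg stayed between 1.35 and 1.56 in all 15 libraries, while each chain itself varied by 2.75-fold (Fgg) to 2.95-fold (Fgb).

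Fibrinogen is secreted as a hexamer with 2 copies of each chain, and the complement component 8 as a complex of alpha, beta and gamma chains. For these 6 genes the log2 CPM of each pair of chains was correlated over the 15 liver libraries, 6 relations in all, with 100000 permutations and Benjamini-Hochberg adjustment over the 6. Fga and Fgb had r = 0.977 and rho = 0.911, Fga and Fgg r = 0.990 and rho = 0.961, and Fgb and Fgg r = 0.990 and rho = 0.957. Permutation p was 1e-05 for r and for rho in all 3 pairs, the smallest value that 100000 permutations can give, and adjusted p was 1.5e-05 for r and 2e-05 for rho. C8a and C8b had r = 0.879 and rho = 0.882 (permutation p = 1e-05 and 3e-05, adjusted p = 1.5e-05 and 4.5e-05). C8g went with neither: r was -0.205 and rho -0.143 with C8a (permutation p = 0.46 and 0.61, adjusted p = 0.55 and 0.73), and r was -0.0369 and rho 0.0107 with C8b (permutation p = 0.89 and 0.97, adjusted p = 0.89 and 0.97). Without the 2 libraries farthest from the median of the first gene, r was 0.966, 0.985 and 0.986 for the fibrinogen pairs, 0.829 for C8a and C8b, and -0.220 and -0.277 for the pairs with C8g. After subtraction of arm means the 6 values of r were 0.983, 0.991, 0.992, 0.876, -0.158 and -0.0141 in the same order, and within the 6 HFLF libraries alone they were 0.991, 0.993, 0.995, 0.951, -0.180 and -0.0340. The libraries share their depth and their scaling, and the chains of a pair lie within 25091 bases of each other for fibrinogen and 11130 bases for C8a and C8b, with C8g on another chromosome. Fgb, Fgg and the C8 genes were named after their values were seen, so the permutation p-values are not those of pairs chosen beforehand. No correlation of other liver genes is set beside these values, so they cannot be read as a trait of these pairs.

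C8a had 553 to 1410.2 CPM (median 782, n = 6) in HFLF, 1197, 1175, 813, 1067 and 742 CPM in HF and 1153, 843, 1017 and 1114 CPM in LF. C8b had 229.8 to 475 CPM (median 338, n = 6) in HFLF, 490.1, 473, 384, 361 and 279 CPM in HF and 472, 287, 447 and 327 CPM in LF. C8g had 373 to 502 CPM (median 419, n = 6) in HFLF, 375, 468, 431, 425 and 431 CPM in HF and 452, 417, 373 and 366 CPM in LF, a narrower range in each arm than C8a had. The acute phase gene Saa1, serum amyloid A, moved with some of these library differences and not with others. It stood at 2855 CPM in HFLF 2, 2938 in HF 2 and 3421 in LF 6, against 28.6 in HFLF 5, 18.8 in HFLF 6 and 201 in LF 1. HFLF 2 and HF 2 were also high in fibrinogen, whereas LF 6 was the lowest LF library for all 3 chains and LF 1 the highest. C3 was instead highest in LF 6 among the LF libraries, at 5842, 5558, 6058 and 9925 CPM in LF 1, 2, 3 and 6. The part of an acute phase difference in these values was not tested.

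**Figure D2:**
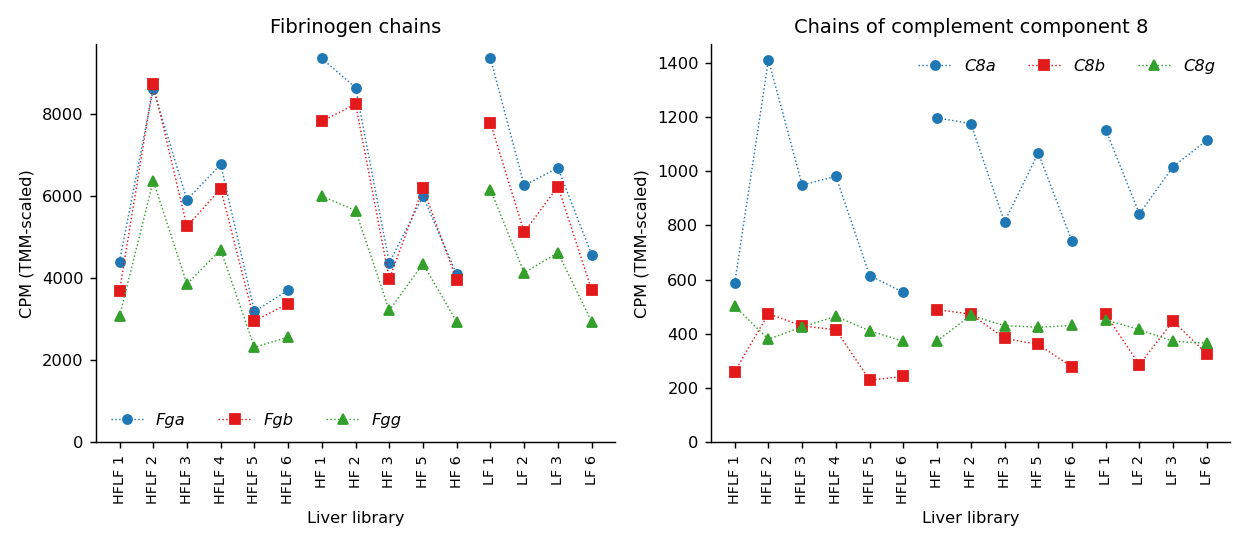
CPM of the 3 fibrinogen chains (left) and the 3 chains of complement component 8 (right) in each liver library, HFLF, HF and LF from left to right; dotted lines join libraries of an arm only to guide the eye. Fga, Fgb and Fgg go up and down together between 2321 and 9365 CPM, C8a and C8b do so less tightly, and C8g stays between 366 and 502 CPM.

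The promoters of these 6 genes are shown because their transcripts moved together (fibrinogen, C8a with C8b) or apart (C8g). Each runs 5′ to 3′ on the gene's strand, from 250 bases before to 50 bases after the RefSeq start on GRCm38.p6. Of the 40 members, 31 had an entry in this promoter table. Capitals mark matches, on either strand, to 3 motifs: GTTAAT (the half-site of the liver factor HNF1), TTGCNNAA (C/EBP) and TTCNNNGAA (STAT). No 2 matches overlapped in these sequences.
Fga, chr3:83025903-83026202, plus strand: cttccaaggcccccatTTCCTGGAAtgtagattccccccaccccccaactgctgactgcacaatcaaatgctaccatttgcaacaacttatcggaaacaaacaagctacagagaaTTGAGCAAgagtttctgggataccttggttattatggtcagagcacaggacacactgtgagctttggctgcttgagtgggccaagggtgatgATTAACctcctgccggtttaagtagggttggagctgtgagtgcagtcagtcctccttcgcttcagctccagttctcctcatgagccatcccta
Fgb, chr3:83049814-83050113, minus strand: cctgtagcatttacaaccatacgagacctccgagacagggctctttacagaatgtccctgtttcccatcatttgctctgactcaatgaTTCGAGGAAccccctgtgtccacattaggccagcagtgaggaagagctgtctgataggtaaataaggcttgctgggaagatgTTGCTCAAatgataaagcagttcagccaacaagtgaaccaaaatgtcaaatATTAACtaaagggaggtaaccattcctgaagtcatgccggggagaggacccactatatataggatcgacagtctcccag
Fgg, chr3:83007474-83007773, plus strand: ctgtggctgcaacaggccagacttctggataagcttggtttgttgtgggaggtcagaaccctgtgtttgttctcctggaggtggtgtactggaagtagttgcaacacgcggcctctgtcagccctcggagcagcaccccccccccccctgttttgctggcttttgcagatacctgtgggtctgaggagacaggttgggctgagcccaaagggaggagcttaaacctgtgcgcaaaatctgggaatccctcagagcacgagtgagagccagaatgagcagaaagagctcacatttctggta
C8a, chr4:104876349-104876648, minus strand: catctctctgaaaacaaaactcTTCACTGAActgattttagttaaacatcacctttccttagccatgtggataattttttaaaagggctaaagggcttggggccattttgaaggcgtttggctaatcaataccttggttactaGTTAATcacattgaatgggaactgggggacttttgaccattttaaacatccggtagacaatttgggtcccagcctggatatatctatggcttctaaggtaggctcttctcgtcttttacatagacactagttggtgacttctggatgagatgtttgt
C8b, chr4:104766067-104766366, plus strand: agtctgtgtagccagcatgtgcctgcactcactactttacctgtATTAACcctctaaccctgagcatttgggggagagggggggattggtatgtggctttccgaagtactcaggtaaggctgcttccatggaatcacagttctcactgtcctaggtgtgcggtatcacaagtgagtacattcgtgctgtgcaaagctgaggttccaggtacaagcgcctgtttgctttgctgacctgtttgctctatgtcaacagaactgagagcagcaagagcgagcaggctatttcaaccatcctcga
C8g, chr2:25501670-25501969, minus strand: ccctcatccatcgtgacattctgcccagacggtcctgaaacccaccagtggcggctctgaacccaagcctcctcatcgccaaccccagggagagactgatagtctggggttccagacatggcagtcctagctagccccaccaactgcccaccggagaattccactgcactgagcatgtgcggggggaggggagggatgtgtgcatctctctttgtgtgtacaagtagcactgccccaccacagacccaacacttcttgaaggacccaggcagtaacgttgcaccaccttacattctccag
Fga and Fgb each held all 3 motifs, as ATTAAC, TTGAGCAA and TTCCTGGAA in Fga and as ATTAAC, TTGCTCAA and TTCGAGGAA in Fgb. C8a held GTTAAT and TTCACTGAA, and C8b held ATTAAC. Fgg and C8g held 0 matches, and Fgg moved with Fga and Fgb all the same. GTTAAT was present in 7.2% of the 27025 promoters of the table, TTGCNNAA in 10.8% and TTCNNNGAA in 8.47%. Among the 31 members these were 9, 11 and 8 promoters (29%, 35.5% and 25.8%). A match says only that the letters are in the window.

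Set beside eWAT, the members ranged from genes at a trace of their liver level to genes at a high level in eWAT too, with a middle group between them. In a joint fit of the 31 libraries, restricted to the 12735 genes that both tables hold, 30 of 31 members were higher in liver, among them Pros1 and C2, which turned round under another scaling, and 1, C5ar1, was lower (edgeR, adjusted p under 0.05), where 42.6% and 42.9% of all genes were called higher and lower. The members' log2 fold changes of liver against eWAT had a median of 7.72, beside 0.00493 over all genes. The largest were 11.59 ± 0.37 for Plg, 11.37 ± 0.42 for F2 and 11.24 ± 0.36 for C8a (log2 ± SE, adjusted p = 6.08e-23, 4.43e-21 and 9.68e-23). All 3 fibrinogen chains lay between 10.73 and 11.02, and in the contact route Klkb1 lay at 8.89 and F12 at 10.70, with Kng1 above both. Among genes in both tables, the classical route was the nearest to even, with C1ra at 2.30 ± 0.09, Serping1 at 2.06 ± 0.11, C4b at 1.96 ± 0.15, C1s1 at 1.57 ± 0.07 and C2 at 0.40 ± 0.13 (adjusted p = 0.00468 for C2, which carried the least support). C4bp, counted with this route, averaged 613 CPM in liver and was absent from the eWAT table, so it was not in this fit. C3 stood at 3.34 ± 0.17, Cfb at 2.39 ± 0.09 and C6 at 2.74 ± 0.14. C5ar1 stood at -4.57 ± 0.18 (adjusted p = 9.51e-21). Pros1 and C2 depended on the scaling between tissues: at 0.31 ± 0.07 for Pros1 with TMM factors, they turned to -0.43 ± 0.07 and -0.34 ± 0.12 with library totals alone, a setting that moved the median of all genes to -0.73. With values scaled within each tissue Pros1 averaged 71.5 CPM in liver and 98.1 CPM in eWAT, and C2 71.5 CPM in liver and 90.6 CPM in eWAT. No direction is therefore given for these 2 genes. In bulk tissue, fewer cells of a type and less RNA per cell cannot be told apart.

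In eWAT the highest members were complement genes. C3 had 558 to 1609.8 CPM (median 1232, n = 6) in HFLF, 726 to 1930.5 CPM (median 1490.0, n = 6) in HF and 1385, 939.7, 1258 and 945 CPM in LF. C4b had 525 to 1219 CPM (median 644, n = 6) in HFLF, 735 to 1322 CPM (median 944, n = 6) in HF and 767, 461, 825 and 1247 CPM in LF. Serping1 had 185 to 456 CPM (median 322, n = 6) in HFLF, 287 to 391 CPM (median 363, n = 6) in HF and 314, 198, 308 and 378 CPM in LF. The arms overlapped in all 3 genes. Per kilobase of exon, C3 was the highest member in eWAT at 241 CPM per kilobase, followed by C4b (152), Serping1 (140.0), C1s1 (81.5) and C1ra (30.4). These 5 lay above the 90th percentile of all eWAT genes. Klkb1 was the lowest, at 0.134 CPM per kilobase, with 0.499 to 0.902 CPM (median 0.666, n = 6) in HFLF, 0.262 to 1.01 CPM (median 0.576, n = 6) in HF and 1.01, 0.848, 1.28 and 0.513 CPM in LF. The median member lay at percentile 34.2, beside 98.3 in liver.

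To place the trace, each member's ratio of eWAT to mean liver CPM was set against the ratio of hepatocyte marker genes in the same eWAT library. The marker ratio is the median over 22 markers found in both tables, among them Alb (albumin) and Apoa1. It was 0.119%, 0.0215%, 0.0148%, 0.0234%, 0.0237% and 0.0307% in HFLF 1 to 6, 0.0903%, 0.106%, 0.118%, 0.016%, 0.494% and 0.0826% in HF 1 to 6, and 0.0756%, 0.278%, 0.36% and 0.092% in LF 2, 3, 5 and 6. HF 5, LF 5 and LF 3 were the highest libraries, and 5 of 6 HFLF libraries lay with HF 4 at the low end. As defining markers, Alb ran from 11.9 to 207 CPM and Apoa1 from 0.856 to 64 CPM over the 16 eWAT libraries, and neither was at 0 in any. The markers' own ratios, over the median, ran from 0.526 (Apob) to 2.45 (Serpina1a) as medians over libraries, apart from Rbp4 at 216, which adipocytes also make.

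On this measure 13 members had medians from 0.457 to 1.45, inside or just under the span of the markers. They were Plg (0.457), F2 (0.566), Fga (0.577), C8a (0.612), Kng1 (0.687), Fgg (0.761), C9 (0.769), Fgb (0.81), F12 (0.831), Serpinf2 (0.894), Serpind1 (0.928), Serpinc1 (1.05) and Cfi (1.45), the protease that inactivates C3b and C4b. Of their 208 values by library, 9 were above 2.45. Klkb1 came next at 2.94. A middle group lay between 9.47 and 54.6: Masp2, F5 (9.76), Vtn (10.4), F10 (12.8), C8g (17.2), Masp1 (22.1) and F7. The complement genes C3 (204), C6 (313), C1ra (414), Cfb (421), Serping1 (514), C4b (594), C1s1 (645) and C2 (1351), with Pros1 (1738), lay above these, and C5ar1 was the farthest at 49308. With Alb, Apoa1, Apoa2 and Ttr alone as markers, the same 13 members were at or under the highest marker. These groups were drawn from the values and carry no test. C8g differed from C8a in this grouping: it had 4.61 to 6.23 CPM (median 5.6, n = 6) in HFLF, 3.28 to 7.48 CPM (median 5.68, n = 6) in HF and 5.4, 5.09, 8.74 and 7.61 CPM in LF, where C8a had at most 2.75 CPM. Of the 9 members absent from the eWAT table, those at the highest liver level, Proc and C4bp, would at the marker ratio have a median of 0.587 and 0.530 CPM, and the other 7 a median of 0.0945 to 0.321 CPM. At that ratio Proc would have reached 0.5 CPM in 10 libraries and C4bp in 9, more than the 4 in which every gene of the table had reached it, and the other 7 in 1 to 3.

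**Figure D3:**
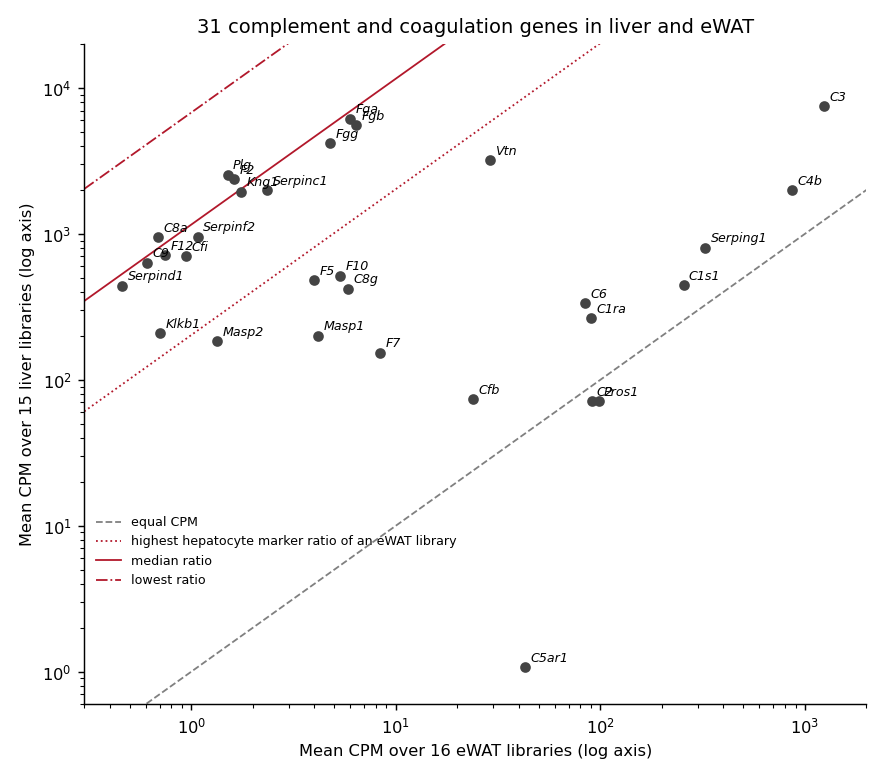
Mean CPM in 15 liver libraries (vertical) against mean CPM in 16 eWAT libraries (horizontal), both on log axes, for the 31 genes in both tables. Red lines mark the lowest, median and highest hepatocyte marker ratio of an eWAT library (0.0148%, 0.0865% and 0.494%), along which Plg, F2, Fga and their neighbours lie. C3, C4b and the C1 proteases lie closer to the grey line of equal CPM but on its liver side. C2 and Pros1 lie next to that line, and C5ar1 lies far beyond it.

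**Figure D4:**
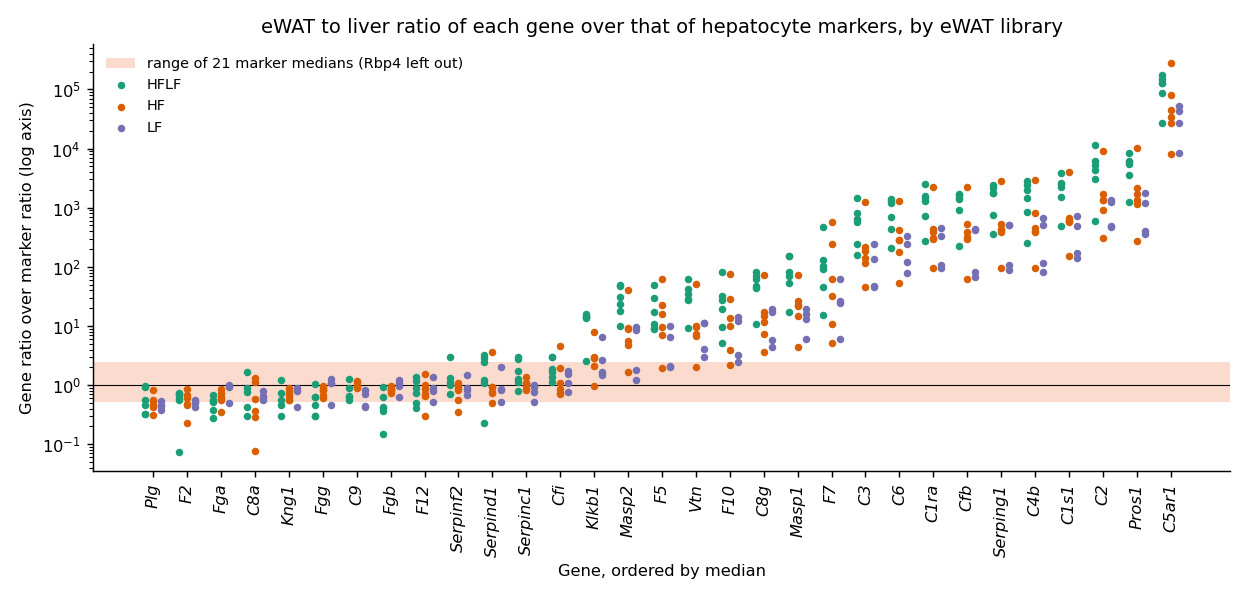
Ratio of eWAT to liver CPM for each gene, divided by the hepatocyte marker ratio of the same library (log axis), with 1 point per eWAT library in HFLF, HF and LF from left to right. The band spans the medians of 21 markers, from 0.526 to 2.45, with Rbp4 left out; 5 of 496 values were 0 and are not drawn. The 13 genes at the left have their medians in or just under the band.

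No member passed the adjusted test between arms in eWAT, and in HFLF against LF the smallest p-values were those of genes at the hepatocyte marker ratio. At an adjusted p under 0.05 edgeR called 0 of 31 members in HF against LF, HFLF against LF or HFLF against HF, where 0 of 15987 genes passed (0%). DESeq2 called 0 members and 12, 69 and 52 of all genes in the same order, and limma voom called 0 of either. In HFLF against LF, 14 of 31 members were lower and 0 higher at an unadjusted p under 0.05, beside 7.06% lower and 3.78% higher over all genes. They were the 13 members at the marker ratio and C5ar1. In HFLF against HF, 14 were lower and 0 higher, beside 4.43% and 4.86%, 12 of them at the marker ratio and the others F5 and C5ar1. In HF against LF, 3 were higher and 1 lower, beside 2.82% and 4.22%. The hepatocyte markers themselves had a median log2 fold change of -2.22 in HFLF against LF, -1.77 in HFLF against HF and -0.34 in HF against LF. Of the 22 markers, 17, 15 and 1 were lower at an unadjusted p under 0.05, the 1 being Rbp4. The 13 members at the marker ratio had medians of -2.23, -1.97 and -0.34. These 13 were picked by their level relative to the markers in the same libraries, so the likeness was partly built in and is no test. Without HF 5, LF 3 and LF 5, the libraries highest in hepatocyte genes, a choice made after these data were seen, 1, 6 and 0 members had an unadjusted p under 0.05 in HFLF against LF, HFLF against HF and HF against LF, beside 12.6%, 7.54% and 12.1% of all genes. Those libraries were also the highest for members such as Plg and Fga, and LF kept only LF 2 and LF 6. Fewer members were therefore partly set by the choice, and no conclusion is drawn. Single libraries moved these counts too: without HF 5, 9 members were lower in HF against LF and 3 in HFLF against HF, beside 4.69% and 2.81% of all genes. Without LF 5, 8 were lower in HFLF against LF, beside 8.94%, and without HFLF 3, 9 were lower in HFLF against HF, beside 3.47%. The median log2 fold change over the 31 members was -0.34 in HFLF against LF, -0.70 in HFLF against HF and -0.12 in HF against LF, beside 0.0094, 0.00122 and -0.00423 over all genes. Without HFLF 2 the median was -0.68 in HFLF against LF and -1.08 in HFLF against HF, without HF 2 it was -0.34 in HFLF against HF, and in HF against LF its sign changed without LF 5 (0.15), LF 3 (0.04) or HF 4 (0.03). A gene listed in the eWAT table could have reached its minimum through 4 libraries alone, which limits what these counts say. Serpind1, C9 and C8a had at most 0.341, 0.479 and 0.492 CPM in HFLF and reached the minimum of 0.5 CPM only in HF and LF libraries. Their lower HFLF values in these counts were therefore partly fixed by that minimum.

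Plg, the precursor of plasmin, had the smallest p in HFLF against LF. It had 0.997, 0.306, 0.356, 0.196, 0.273 and 0.738 CPM in HFLF 1 to 6, 0.721, 1.46, 1.67, 0.175, 5.7 and 1.72 CPM in HF 1 to 6 and 0.743, 3.82, 4.21 and 1.03 CPM in LF 2, 3, 5 and 6. Plg was highest in HF 5, LF 5 and LF 3, the libraries of the highest marker ratio, and the arms overlap. Its log2 fold change was -2.28 ± 0.71 (SE; unadjusted p = 0.00558, adjusted p = 0.282) in HFLF against LF and -1.97 ± 0.66 (SE; unadjusted p = 0.00893, adjusted p = 0.433) in HFLF against HF. Cfi had 0.957, 0.459, 0.143, 0.49, 0.273 and 0.41 CPM in HFLF, 0.459, 1.46, 0.714, 0.524, 2.51 and 0.629 CPM in HF and 0.811, 2.12, 1.98 and 1.11 CPM in LF, with -1.64 ± 0.52 (SE; unadjusted p = 0.00579, adjusted p = 0.282) in HFLF against LF. Serpind1 had 0.12, 0.23, 0.0713, 0.294, 0.341 and 0.164 CPM in HFLF, 0.197, 0.364, 0.476, 0.262, 1.59 and 0.343 CPM in HF and 0.675, 1.06, 0.829 and 0.342 CPM in LF, with -1.82 ± 0.58 (SE; unadjusted p = 0.00591, adjusted p = 0.282) in HFLF against LF. All HFLF values lay below all LF values, with HFLF 5 and LF 6 almost level. Serpind1 reached the table's minimum of 0.5 CPM only in HF 5, LF 2, LF 3 and LF 5, so low HFLF values were partly fixed by that minimum. Fga had 4.94, 0.497, 0.499, 0.785, 0.409 and 0.984 CPM in HFLF, 3.47, 3.64, 4.28, 0.35, 26.2 and 3.66 CPM in HF and 4.39, 16.6, 22.1 and 2.82 CPM in LF, with -2.98 ± 0.94 (SE; unadjusted p = 0.00638, adjusted p = 0.282) in HFLF against LF, the largest fold change of a member. HFLF 1 was the only HFLF library above 1 CPM. C9 had 0.479, 0.0765, 0, 0.0981, 0.136 and 0.246 CPM in HFLF, 0.655, 0.637, 0.714, 0, 2.8 and 0.629 CPM in HF and 0.338, 0.742, 1.91 and 0.256 CPM in LF, most of them near or under the floor of 3 counts, with -2.30 ± 0.78 (SE; unadjusted p = 0.00942, adjusted p = 0.433) in HFLF against HF. As with Serpind1, no HFLF library of C9 reached 0.5 CPM, so its low HFLF values were partly fixed by the table's minimum.

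The 3 members of smallest p in HF against LF all lay above the marker ratio. Pros1 had 78 to 108 CPM (median 95.1, n = 6) in HFLF, 85.9, 129.6, 97.9, 119, 97.1 and 125 CPM in HF and 95.5, 80.7, 92.7 and 80.3 CPM in LF, at a log2 fold change of 0.32 ± 0.12 (SE; unadjusted p = 0.0147, adjusted p = 0.689) in HF against LF. HF 1 lay inside the LF range and the other 5 HF libraries above it. C1s1 had 207 to 273 CPM (median 259.7, n = 6) in HFLF, 244, 266, 348, 292, 329.7 and 230.4 CPM in HF and 247, 173, 275 and 198 CPM in LF, at 0.35 ± 0.14 (SE; unadjusted p = 0.0249, adjusted p = 0.689). F5 had 5.26, 3.1, 3.49, 1.96, 1.23 and 1.31 CPM in HFLF, 7.01, 4.92, 3.97, 4.89, 4.59 and 8.87 CPM in HF and 2.36, 2.76, 3.64 and 4.36 CPM in LF. Its log2 fold change was 0.80 ± 0.37 (SE; unadjusted p = 0.0426, adjusted p = 0.689) in HF against LF and -1.04 ± 0.32 (SE; unadjusted p = 0.0048, adjusted p = 0.428) in HFLF against HF, and 1 HFLF library, HFLF 1, lay inside the HF range. These 2 comparisons of F5 share the HF libraries. Vtn had 21.8 to 34.9 CPM (median 28.1, n = 6) in HFLF, 22.7 to 32.3 CPM (median 27, n = 6) in HF and 27.2, 36.7, 34.1 and 32.7 CPM in LF, at -0.26 ± 0.12 (SE; unadjusted p = 0.0484, adjusted p = 0.689) in HF against LF. Without LF 3, LF 6, HF 2 and HF 6, the libraries highest in testis genes, 0 of 31 members had an unadjusted p under 0.05 in HF against LF, beside 2.76% of all genes, and the log2 fold change of Pros1 was 0.08. That left only LF 2 and LF 5 in LF and took out the highest HF values of Pros1, 129.6 and 125 CPM. The part of testis transcripts in this change was not tested.

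F7 and F10, neighbours 1498 bases apart on chromosome 8, shared their highest and their lowest eWAT library. F7 had 8.45, 15.6, 2.07, 4.61, 3.82 and 0.738 CPM in HFLF, 4.45, 39.9, 1.98, 13.9, 3.96 and 8.01 CPM in HF and 2.84, 11.1, 3.32 and 8.89 CPM in LF, and F10 had 5.9, 9.07, 2.07, 3.83, 2.39 and 0.82 CPM in HFLF, 4.59, 15.8, 2.38, 6.21, 5.65 and 5.83 CPM in HF and 4.73, 4.66, 4.59 and 6.84 CPM in LF. HF 2 was the highest and HFLF 6 the lowest library for both, whereas LF 3 was the highest LF library for F7 and not for F10. C5ar1 had 34.1, 34.6, 27.5, 32.5, 33.2 and 29 CPM in HFLF, 32.9, 91.4, 34.1, 47.5, 42.6 and 40.4 CPM in HF and 34.9, 82.2, 32.6 and 52.5 CPM in LF, with HF 2 and LF 3 far above the rest. The log2 fold change of C5ar1 was -0.66 ± 0.28 (SE; unadjusted p = 0.0318, adjusted p = 0.409) in HFLF against LF and -0.59 ± 0.25 (SE; unadjusted p = 0.0327, adjusted p = 0.512) in HFLF against HF. Macrophage markers, of which 12 of 13 were in the eWAT table, summed to 874 to 1560 CPM in HFLF, 1224 to 2305 CPM in HF and 1311 to 2571 CPM in LF, with HF 2 and LF 3 the highest and HFLF 6 the lowest. HFLF 6 also had the lowest mesothelium sum (9.02 CPM over 11 of 12 markers, where HFLF, HF and LF libraries otherwise had 54.1 to 676 CPM) and was the lowest library for 8 of 31 members, C3, C6, C1ra, Serping1, Pros1, F7, F10 and Serpinf2. No share over all eWAT genes is set beside this count. The part of these cell types in the member levels was not tested.

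**Figure D5:**
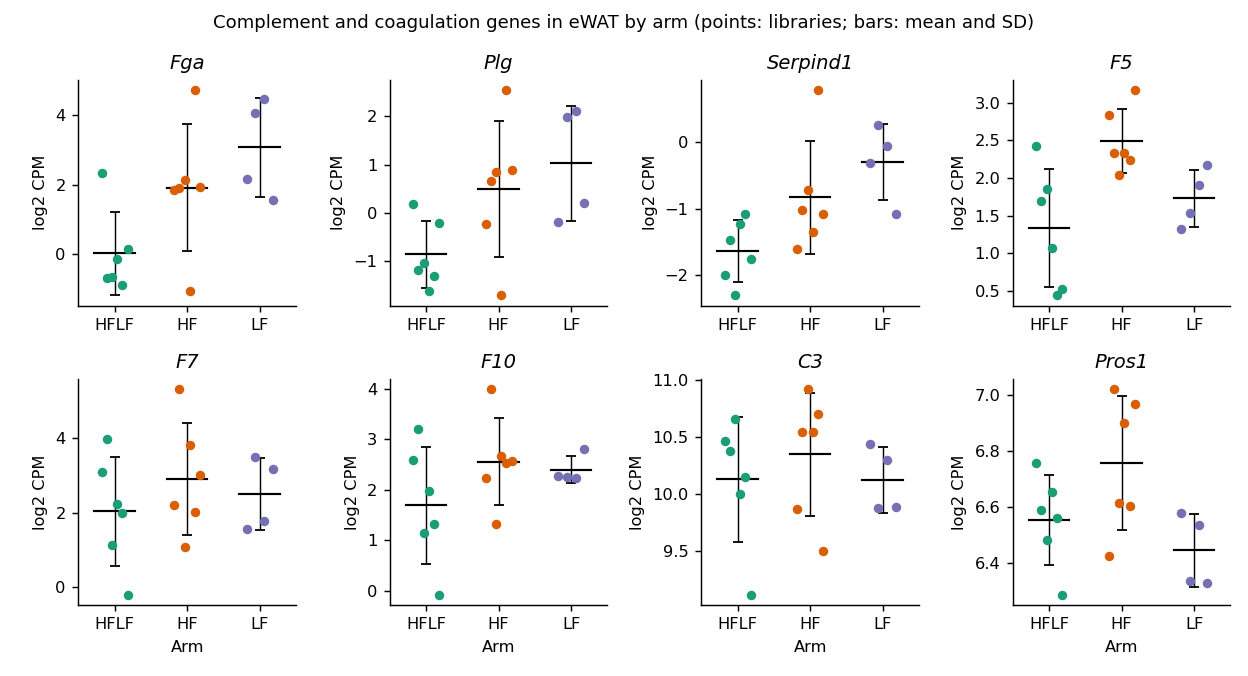
Level of 8 genes in eWAT (log2 CPM, prior count 2), with 1 point per library and the mean and SD of each arm, HFLF (n = 6), HF (n = 6) and LF (n = 4) from left to right. Fga, Plg and Serpind1 spread widely within arms, and the arms overlap in F5, C3 and Pros1.

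The difference of the arm effect between liver and eWAT, tested as an interaction over the 12735 shared genes, passed for 0 of 31 members and 0 of all genes (0%) in each of the 3 comparisons (edgeR). At an unadjusted p under 0.05 the log2 fold change in liver was above that in eWAT for 12 of 31 members in HFLF against LF, beside 3.33% of all genes, for 13 in HFLF against HF, beside 2.4%, and for 0 in HF against LF, beside 2.62%. In HF against LF it was below that in eWAT for 2 members, Pros1 and F5 (unadjusted p = 0.0155 and 0.0311, adjusted p = 0.956 each), beside 2.25%. In HFLF against LF, DESeq2 called Cfi (liver minus eWAT 1.48 ± 0.43, adjusted p = 0.0304) and Serpind1 (liver minus eWAT 1.91 ± 0.43, adjusted p = 0.00485), beside 0.181% of all genes, and limma voom called 0 members. Serpind1 reached 0.5 CPM, the minimum of the eWAT table, only in HF and LF libraries, with at most 0.341 CPM in HFLF. Its place in the table came from the arms in which it was high, which limits what its call says. C8a and C9 also stayed under 0.5 CPM in every HFLF eWAT library, which limits the counts of members given here. Without LF 5, liver was above eWAT for 6 members at an unadjusted p under 0.05 in HFLF against LF, beside 4.2% of all genes. Without HF 5 this held for 2 members in HFLF against HF, beside 1.67%, and for 11 in HF against LF, beside 3.05%. Without the 3 eWAT libraries highest in hepatocyte genes it held for 1 of 31 members in HFLF against LF, beside 3.42%. That choice was made after the data were seen and left only LF 2 and LF 6 in LF eWAT, so no conclusion is drawn.

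The other genes of these pathways, from lists written with earlier results of these data known, also gave 0 calls between arms. Of 31 other clotting and fibrinolysis genes 23 were in liver and 26 in eWAT, of 37 other complement genes 31 and 28, of 10 vitamin K and secretion genes 10 and 10, of 15 liver transcription factors and interleukin 6 signalling genes 15 and 10, and of 21 other acute phase genes 21 and 16. The genes named here had the smallest p of their list in a comparison. In liver, Serpine2, a thrombin inhibitor of tissues also called protease nexin 1, had 24.8 ± 5.26 CPM in HFLF (n = 6), 37 ± 2.5 CPM in HF (n = 5) and 37.4 ± 6.1 CPM in LF (n = 4; mean ± SD). All 6 HFLF values lay below all HF and LF values, which carries no weight of its own in a gene named for its small p. The log2 fold change of Serpine2 was -0.59 ± 0.14 (adjusted p = 0.53) in HFLF against LF and -0.58 ± 0.13 (adjusted p = 1.000) in HFLF against HF. In HF against LF the smallest p belonged to Plaur, the urokinase receptor, at -0.92 ± 0.41 (adjusted p = 1.000), Cfd, the adipocyte protease adipsin, at 1.5 ± 0.61 (adjusted p = 1.000), Onecut1, a liver transcription factor, at 1.26 ± 0.47 (adjusted p = 1.000) and Orm3 at 0.73 ± 0.53 (adjusted p = 1.000). Plaur and Cfd lay around or under 1 CPM in liver, whereas Cfd had 4199 ± 1473, 4889.8 ± 2278 and 6402 ± 3791 CPM in HFLF, HF and LF eWAT. In HFLF against LF, Cfd, Il6st (the shared receptor chain of interleukin 6) and Orm1 stood at 1.21 ± 0.62 (adjusted p = 0.868), 0.22 ± 0.10 (adjusted p = 0.868) and -0.58 ± 0.45 (adjusted p = 0.902). In HFLF against HF, C5ar2, Ggcx (the vitamin K-dependent carboxylase), Prox1 and Steap4 stood at 0.46 ± 0.24 (adjusted p = 1.000), 0.11 ± 0.11 (adjusted p = 1.000), 0.30 ± 0.13 (adjusted p = 1.000) and -0.24 ± 0.16 (adjusted p = 1.000). Of the 21 acute phase genes 20 had a log2 fold change below 0 in HFLF against HF, where 50.9% of all liver genes were above 0. Their median was -0.28, and 0 had an unadjusted p under 0.05. Saa1, Orm1 and Itih4 were each highest in HF 2 among HF and in HFLF 2 among HFLF livers, so these genes are not separate observations.

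In eWAT the leading gene was Cfp, properdin, which stabilises the C3 convertase of the alternative route and is made by myeloid cells. Cfp had 53.4 to 86.6 CPM in HFLF, 89.9 to 123 CPM in HF and 91.8 to 138 CPM in LF. It was named for the smallest p of its list, so these separate ranges carry no weight of their own. Its log2 fold change was -0.65 ± 0.14 (adjusted p = 0.266) in HFLF against LF and -0.52 ± 0.13 (adjusted p = 0.395) in HFLF against HF. In HFLF against LF, Hrg, histidine-rich glycoprotein, stood at -2.60 ± 0.77 (adjusted p = 0.282), Hpn, the membrane protease hepsin, at -0.77 ± 0.24 (adjusted p = 0.282), Hnf4a, a liver transcription factor, at -1.12 ± 0.63 (adjusted p = 0.549) and Itih4 at -1.77 ± 0.64 (adjusted p = 0.325). In HFLF against HF, Pzp, a protease inhibitor of plasma, stood at -2.13 ± 0.74 (adjusted p = 0.44), Tmprss6 at -0.71 ± 0.34 (adjusted p = 0.538), Nr1h4, the bile acid receptor FXR, at -0.96 ± 0.27 (adjusted p = 0.419) and Orm1 at 0.59 ± 0.21 (adjusted p = 0.44). In HF against LF, Procr, the endothelial protein C receptor, stood at 0.26 ± 0.14 (adjusted p = 0.689), Hpn at -0.72 ± 0.24 (adjusted p = 0.689), Colec12 at 0.35 ± 0.17 (adjusted p = 0.689), Nr1h4 at 0.78 ± 0.31 (adjusted p = 0.689) and Lcn2 at -0.75 ± 0.48 (adjusted p = 0.702). Between the tissues 8 of 20 other clotting genes were higher in liver and 12 lower, 10 and 15 of 27 other complement genes, 8 and 0 of 10 vitamin K and secretion genes, 7 and 2 of 10 transcription factor and interleukin 6 genes, and 12 and 2 of 16 acute phase genes (edgeR, adjusted p under 0.05). Over all 12735 shared genes, 42.6% were called higher in liver and 42.9% lower. The lists were not tested against these shares. The genes of smallest p in these lists were Proz, protein Z, at 8.89 ± 0.13 (adjusted p = 4.01e-31), C1rl at 4.36 ± 0.08 (adjusted p = 1.21e-29), Hpn at 8.59 ± 0.12 (adjusted p = 1.72e-31), Nr1h4 at 7.03 ± 0.13 (adjusted p = 7.48e-29) and Serpina3m at 7.63 ± 0.17 (adjusted p = 9.32e-27) on the log2 scale.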

How the data were processed

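Liver and eWAT were measured by sequencing of total RNA, per the labels' protocols. The submitters' processing notes name STAR and the mouse build GRCm38.p6; neither RNA selection nor strandedness is stated in them or in the labels. The deposited values are whole-number counts per gene made by the authors, 1 table per tissue, and the deposited RPKM tables were not used. Every gene had at least 0.5 CPM in at least 4 libraries of its table, and 0 value columns of the tables used were left unmapped. Each tissue was fitted over all of its genes with edgeR 4.0.16 (R 4.3.3; TMM factors, robust quasi-likelihood test, Benjamini-Hochberg adjustment over all genes, threshold 0.05); the tissue comparison and the tissue differences used a joint fit. The SE is the log2 fold change over the square root of F, and log2 CPM used a prior count of 2. Alternatives were DESeq2 1.42.0, limma 3.58.1 (voom), other scaling, a filter of 1 CPM in 4 libraries, a replicate block and left-out libraries. Permutations used scipy 1.17.1. Values by library are given for the 3 members of smallest p in each arm comparison, the 5 of highest mean CPM in eWAT, the highest and lowest per kilobase in each tissue and the members at the ends of the marker ratio; of the pathway lists, the gene of smallest p in each comparison is named, except for a result that is not reported here. F2, Fgb, Fgg, F7, F10, Vtn, Saa1 and the C8 genes were named after their values were seen. The members and lists were chosen with earlier results of these data known. The hepatocyte-high and macrophage-high libraries were left out as choices made after seeing the data. The fitting code was tested on simulated data. Promoters were taken from RefSeq on GRCm38.p6.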

Additional observations from a re-analysis of the deposited data

Results flagged for a closer look

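In 7 of 126 groups formed by 22 named members, 1 library lay far from the others of its arm on the log2 scale, judged by its gap to the nearest library over the whole range of the arm; chance gives such a gap in about 0.05 of groups. In liver, HF 2 was low for Klkb1 at 143 CPM, and LF 6 was high for C3 at 9925 CPM. In eWAT, HF 2 was high for C5ar1 at 91.4 CPM, HF 5 for Serpind1 at 1.59 CPM, HFLF 1 for Fga at 4.94 CPM and for Fgg at 5.14 CPM, and LF 6 for F10 at 6.84 CPM. HF 5 and HFLF 1 were also the libraries with the highest hepatocyte marker ratio of their arms (0.494% and 0.119%), and HF 2 had the highest macrophage sum of the HF arm (2305 CPM). The part of these in the flagged values was not tested.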

How the results depend on the processing

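With DESeq2, F12 had no adjusted p in liver against eWAT and was not counted there. Leaving aside such small changes between counts above 0, the count of members past the threshold was the same in 304 of 307 alternatives. The exceptions all concern the liver minus eWAT difference in HFLF against LF, where 0 members passed with edgeR: DESeq2 gave 2 (and 0.181% of all genes), leaving out the eWAT libraries high in B cell genes (LF 2, HF 3 and HF 5) gave 2 (Plg and Serpind1, adjusted p = 0.0351 each), and leaving out single libraries gave 0 to 1 (Serpind1 without eWAT HF 5, adjusted p = 0.0473); the cause was not tested. Serpind1 had reached the 0.5 CPM minimum of the eWAT table only in HF and LF libraries, which limits its calls. For the members named in a comparison, 2027 of 2033 alternatives kept direction and side of the threshold. With library totals alone, liver against eWAT reversed for C2 (-0.34) and Pros1 (-0.43), a setting that moved the median of all genes to -0.73. Without the libraries high in B cell genes, 13 members were lower in eWAT HF against LF at an unadjusted p under 0.05 and 3 in HFLF against HF, beside 4.87% and 3.0% of all genes, where all libraries gave 1 and 14; limma voom gave 5 in HFLF against HF, beside 3.84%. Title numbers were not taken to pair the samples, since not every pair's correlation was over 0.1: same-numbered libraries of different arms correlated in their deviations with a median of 0.0848 in liver and 0.0902 in eWAT, where libraries of different numbers had -0.0413 and -0.0287, and the tissues with 0.0342, where different numbers had -0.00548. With the replicate block, 0 members passed between arms in either tissue, 0 passed in the tissue differences and 31 passed between tissues. Depth limited the eWAT members at the hepatocyte marker ratio, many of whose values were near the floor of 3 counts.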
